A study of Mus musculus with 3 samples.

Results

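The 6 genes described here are Nr4a1, Nr4a2, Nr4a3, Egr1, Egr2 and Egr3, out of 21887 protein-coding genes in the annotation. Tcf1 peaks were given to a gene when the peak midpoint lay in its mm10 span, or when it was the nearest protein-coding gene within 100 kb. By that rule 6 of 3402 peaks in regulatory T cells (Treg cells) and 11 of 4519 peaks in conventional CD4 T cells belonged to the 6 genes. Binding of Tcf1, an HMG-box factor and the product of Tcf7, was measured by sequencing DNA pulled down from fixed chromatin with a Tcf1 antiserum (ChIP-seq). Treg cells (TCRb+, CD4+, CD25+, Foxp3-Cre-GFP+) and conventional cells (TCRb+, CD4+, CD25-, Foxp3-Cre-GFP-) were sorted from spleens of wild type Foxp3-Cre-GFP mice aged 8 to 10 weeks, so the cells of both groups came from mice with the reporter allele. The number of animals behind a library is not given in the labels. The conventional sample carries the tissue label effector, against its title and source, and is called conventional here. A library of Tcf1-deficient CD4 T cells, from CD4-Cre+ Tcf1 fl/fl mice, was not analysed here.

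Each cell type had 1 library and 1 deposited list of peak positions, with no read count, height or p-value, so depth is unknown. Every difference between Treg and conventional cells below is therefore a difference between 2 peak lists, without a replicate check and without a test. A list that was called more deeply can hold more peaks, and depth and cell type cannot be told apart here. Peak positions cannot check a cell type by expression, so whether peaks lie at marker genes is a description. Of 4 T cell marker genes, Cd3e and Cd3d had a peak in both lists and Cd3g and Cd4 had none. Of 2 CD8 T cell marker genes, Cd8b1 had a conventional peak and none had a Treg peak. None of 4 B cell and none of 4 myeloid marker genes had a peak in either list. Over all protein-coding genes 12.3% had a Treg peak and 16.3% a conventional peak, so none among 4 genes is no check of purity. Of 5 Treg marker genes, 3 had a Treg peak and 4 a conventional peak, and Foxp3 had none in either list.

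Immediate early genes are switched on within minutes of T cell receptor stimulation, without the need for new protein synthesis. Calcium signals acting through MEF2 and NFAT factors, the MAP kinase pathway acting through SRF and its ETS partners, and cAMP response element binding (CREB) proteins are known inputs to their promoters. Nr4a1, Nr4a2 and Nr4a3 encode orphan nuclear receptors (Nur77, Nurr1 and Nor1), and Egr1, Egr2 and Egr3 encode zinc finger factors. Nr4a1 is widely used as a reporter of receptor signal strength. Nr4a factors are known for their part in Treg development and in exhausted T cells, and Egr2 and Egr3 for limiting T cell activation and for anergy.

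Of the 6 genes, 4 had a Treg peak (Nr4a1, Nr4a3, Egr1 and Egr2) and 5 had a conventional peak (the same 4 and Egr3), while Nr4a2 had none in either list. As background, 12.3% of all protein-coding genes had a Treg peak, 16.3% had a conventional peak and 8.17% had a peak of both lists. The median gene of the 6 had 1 Treg and 1 conventional peak, against 0 and 0 for the median protein-coding gene. A peak is called shared here if 1 bp or more of it lay in a peak of the other list. It is called Treg-only or conventional-only if it did not and no midpoint of the other list lay within 1000 bp, and close otherwise. Of the 6 Treg peaks 4 were shared (66.7%, 95% Clopper-Pearson interval 22.3% to 95.7%), 1 was close and 1 was Treg-only. Of the 11 conventional peaks 4 were shared (36.4%, interval 10.9% to 69.2%) and 7 were conventional-only. These shares stand beside 56.9% of all Treg peaks and 42.8% of all conventional peaks. The intervals cover counting error only and treat the peaks as independent, which they are not. Of the 6 Treg peaks 3 lay at Nr4a1, as did 5 of the 11 conventional peaks, and the shared peaks of the 2 lists are the same 4 sites. Both intervals include the share of the whole list, which is a description and not a test.

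**Figure D1:**
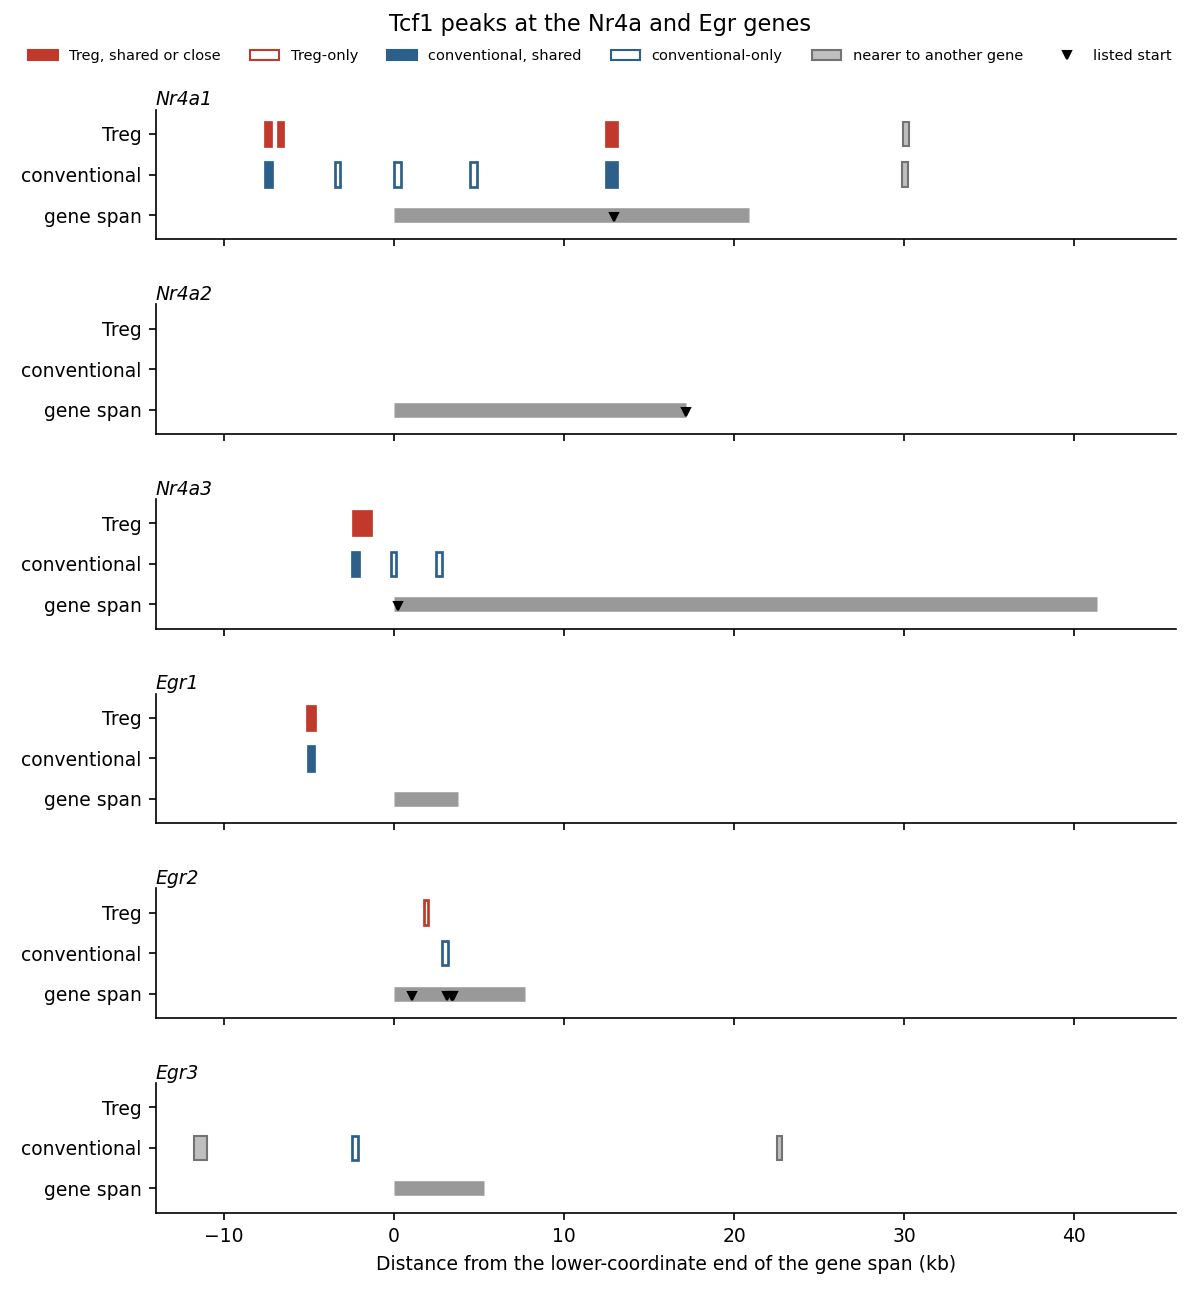
Tcf1 peaks at the 6 genes in the Treg list (red, upper row) and the conventional list (blue, lower row), by distance in kb from the lower-coordinate end of the gene span (grey bar). Filled boxes are shared or close peaks, open boxes are peaks of 1 list alone, grey boxes are peaks nearer to another gene, triangles are listed transcription starts, and peaks outside the plotted range are not drawn. Nr4a1 has 3 Treg and 5 conventional peaks, and Nr4a2 has none.

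Nr4a1, which encodes Nur77, had the most peaks of the 6 genes in both lists. Its span lies on chromosome 15 (mm10, 101253902 to 101274795). The promoter table used here lists 1 transcription start for it, at 101266846 on the plus strand. The span begins upstream of that start, and whether an earlier start is missing from the table was not checked. There were 3 Treg peaks and 5 conventional peaks. Only 0.388% of protein-coding genes had at least 3 Treg peaks, and 0.123% had at least 5 conventional peaks. With peaks merged at gaps up to 1000 bp, Nr4a1 had 2 Treg and 5 conventional peaks. Among peaks at or above the median width of their list it had 1 Treg and 1 conventional peak. The peaks reached over 20206 bp in the Treg list and 20191 bp in the conventional list, counted between the outermost midpoints.

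The widest Nr4a1 peak of each list covered the promoter. In Treg cells it ran from 101266344 to 101267026 (683 bp wide, rank 251 of 3402 by width), with its midpoint 161 bp before the start. In conventional cells it ran from 101266370 to 101267044 (675 bp, rank 577 of 4519), with its midpoint 139 bp before the start. The 2 peaks overlapped over 657 bp, and their midpoints were 22 bp apart, against a median of 59 bp (interquartile range 25 to 115 bp) over all 1935 shared Treg peaks.

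All 300 bases of the RefSeq promoter window of Nr4a1 (GRCm38.p6, chr15:101266596-101266895, plus strand, 250 bases before the start and 50 from it on) lay inside the peaks of both lists. The window is printed 5′ to 3′ because it is the only promoter window of the 6 genes, of those in the table, that lay wholly inside a peak of both lists. Capitals mark matches to the motifs searched on both strands.
Nr4a1: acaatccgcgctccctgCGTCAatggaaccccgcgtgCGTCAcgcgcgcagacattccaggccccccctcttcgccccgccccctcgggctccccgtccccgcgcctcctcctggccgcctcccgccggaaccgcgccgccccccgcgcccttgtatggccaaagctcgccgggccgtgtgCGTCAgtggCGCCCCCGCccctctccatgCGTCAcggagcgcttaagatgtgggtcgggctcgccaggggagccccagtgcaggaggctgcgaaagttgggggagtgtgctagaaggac
The letters TGACG, the core of the cAMP response element bound by CREB proteins, were found 4 times, all on the minus strand, starting 233, 213, 69 and 40 bases before the start. The letters GCGGGGGCG, a form of the Egr site, were found on the minus strand 60 bases before the start. Of 32851 promoter windows in the RefSeq table, 20.8% held TGACG and 2.91% held GCGGGGGCG. A window with 4 or more TGACG matches was found in 76 cases, or 0.231%. That limit was chosen after the Nr4a windows, which are among the 76, had been seen. The share was not matched on G and C content, which was 72.3% in the Nr4a1 window against a median of 52.7% over all windows. None of the 3 TCF/LEF-type words searched, CTTTGAT (in 3.73% of windows), CTTTGAA (in 5.14%) and CTTTGTT (in 5.85%), was in the Nr4a1 window. The peaks were wider than the window, at 683 bp (Treg) and 675 bp (conventional), and their bases outside it were not searched. A match is a description of letters and not of binding.

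The second shared site at Nr4a1 lay upstream of the span. The Treg peak at 101246299 to 101246660 (362 bp) and the conventional peak at 101246305 to 101246728 (424 bp) overlapped over 356 bp. Their midpoints lay 7423 bp (Treg) and 7386 bp (conventional) outside the span, or 20367 bp and 20330 bp before the listed start. Another Treg peak, at 101247080 to 101247378 (299 bp), lay 419 bp beyond the Treg peak just named. It overlapped no conventional peak, and the nearest conventional midpoint was 713 bp away, so it counted as close and not as Treg-only.

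The other 3 conventional peaks at Nr4a1 were conventional-only and lay between the 2 shared sites. They ran from 101250442 to 101250722 (281 bp), from 101253915 to 101254329 (415 bp) and from 101258377 to 101258769 (393 bp), with midpoints 16264, 12724 and 8273 bp before the listed start. The last pair of these midpoints lay inside the gene span as RefSeq draws it, but upstream of the only start in the promoter table. The peak that begins at 101253915 lay at the upstream end of the span (101253902). That end is not a listed start, so this peak was not counted as one at a start. The narrowest of the 3 ranked 4466 of 4519 by width, close to the lower limit of the list (279 bp).

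Nr4a3, which encodes Nor1, had 1 Treg peak and 3 conventional peaks. Its span lies on chromosome 4 (48045078 to 48086447), with 1 listed start at 48045305 on the plus strand. The Treg peak (48042687 to 48043715) was 1029 bp wide and ranked 67 of 3402 by width, the highest rank of any peak at the 6 genes. Its midpoint lay 2104 bp before the start. The shared conventional peak (48042580 to 48043045) was 466 bp wide and ranked 1810 of 4519, with its midpoint 2493 bp before the start. The overlap of 359 bp covered 34.9% of the Treg peak and 77% of the conventional peak, and the midpoints were 389 bp apart, the largest shift among the 4 shared pairs at these genes.

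A conventional-only peak lay on the Nr4a3 promoter. It ran from 48044894 to 48045212 (319 bp, rank 3809 of 4519), with its midpoint 252 bp before the start, and the nearest Treg midpoint was 1852 bp away. Another conventional-only peak (48047541 to 48047894, 354 bp) had its midpoint 2412 bp after the start. The promoter window (chr4:48045055-48045354, plus strand) is printed because 158 of its 300 bases, the upstream ones, lay inside the conventional peak and 0 inside a Treg peak.
Nr4a3: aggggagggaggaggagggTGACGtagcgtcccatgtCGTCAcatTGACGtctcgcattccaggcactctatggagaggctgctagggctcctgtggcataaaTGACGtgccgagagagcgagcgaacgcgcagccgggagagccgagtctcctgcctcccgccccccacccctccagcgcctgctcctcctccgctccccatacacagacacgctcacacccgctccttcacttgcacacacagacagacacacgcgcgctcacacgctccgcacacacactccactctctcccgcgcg
Capitals again mark motif matches. TGACG was found 4 times, starting 231, 213, 205 and 147 bases before the start, and all 4 matches lay inside the conventional peak. No TCF/LEF-type word was found in the window, and the part of the peak outside the window was not searched.

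Nr4a2, which encodes Nurr1, had no Tcf1 peak in either list under the rule. Its span lies on chromosome 2 (57106830 to 57124003, start at 57124003 on the minus strand). The nearest peak was shared and wide, 541 bp in Treg cells (57181577 to 57182117, rank 549) and 882 bp in conventional cells (57181546 to 57182427, rank 202). It lay 57844 bp (Treg) and 57983 bp (conventional) from the Nr4a2 span, inside the long noncoding RNA gene 4930555B11Rik. It was assigned to Gm52512, a gene model whose span was nearer, at 34331 bp and 34192 bp. The Nr4a2 promoter window (chr2:57123954-57124253, minus strand) is printed for comparison with the other Nr4a windows.
Nr4a2: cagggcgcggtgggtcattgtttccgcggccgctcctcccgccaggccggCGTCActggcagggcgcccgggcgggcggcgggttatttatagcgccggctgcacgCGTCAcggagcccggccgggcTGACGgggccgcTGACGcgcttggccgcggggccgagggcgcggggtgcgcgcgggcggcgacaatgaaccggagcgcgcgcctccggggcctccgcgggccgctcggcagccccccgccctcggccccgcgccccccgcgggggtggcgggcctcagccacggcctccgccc
It too held 4 TGACG matches, starting 200, 144, 123 and 111 bases before the start, and no TCF/LEF-type word. The 3 Nr4a windows thus held the same number of TGACG matches, with a peak of both lists on the Nr4a1 window, a conventional peak on part of the Nr4a3 window and no peak on the Nr4a2 window. All 3 were rich in G and C, at 72.3%, 64.7% and 81.7% for Nr4a1, Nr4a3 and Nr4a2, against a median of 52.7% over all windows.

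Egr2, a zinc finger factor also called Krox-20, had 1 Treg peak and 1 conventional peak, both inside its span on chromosome 10 (67534469 to 67542188), and they did not overlap. The Treg peak (67536206 to 67536477) was 272 bp wide and ranked 2853 of 3402. The conventional peak (67537280 to 67537644) was 365 bp wide and ranked 3075 of 4519. Their midpoints were 1121 bp apart with a gap of 802 bp between the peaks, just past the 1000 bp within which peaks counted as close. With that limit at 1500 bp, chosen after these peaks had been seen, neither counted as found in 1 list alone.

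The promoter table lists 5 starts for Egr2, all on the plus strand. The Treg midpoint lay 842 bp after the first of them (67535499), and the conventional midpoint lay 104 bp before another (67537566). The window of that start (chr10:67537316-67537615) lay wholly inside the conventional peak, and that of the next start, 67537869 (chr10:67537619-67537918) overlapped it over 26 bases, its upstream edge. Both are printed because they show which Egr2 promoter the conventional peak covered. No Egr2 window overlapped the Treg peak.
Egr2 (67537566): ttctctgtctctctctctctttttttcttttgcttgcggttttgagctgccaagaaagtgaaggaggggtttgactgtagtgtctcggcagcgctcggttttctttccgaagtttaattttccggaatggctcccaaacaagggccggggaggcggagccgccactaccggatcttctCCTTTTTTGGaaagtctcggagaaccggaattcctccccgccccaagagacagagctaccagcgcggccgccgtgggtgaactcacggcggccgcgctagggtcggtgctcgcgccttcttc
Egr2 (67537869): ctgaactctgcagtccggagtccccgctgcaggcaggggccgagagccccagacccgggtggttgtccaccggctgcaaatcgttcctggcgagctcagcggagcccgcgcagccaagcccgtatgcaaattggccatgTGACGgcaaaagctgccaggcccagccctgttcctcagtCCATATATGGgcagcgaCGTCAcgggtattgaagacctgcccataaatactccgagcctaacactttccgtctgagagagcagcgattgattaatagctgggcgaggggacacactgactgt
The long run of capitals in each window is a CArG box, the site of SRF, 72 bases before the start in both. A CArG box was in 1.63% of all promoter windows. That of the start at 67537566 lay inside the conventional peak and that of the start at 67537869 outside it. The window of the start at 67537869 also held 2 TGACG matches, 111 and 55 bases before the start and outside the peak. No TCF/LEF-type word was found in any of the 5 Egr2 windows.

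Egr3, a relative of Egr2, had 1 conventional peak and 0 Treg peaks. The conventional-only peak (70074829 to 70075184, 356 bp, rank 3207 of 4519) lay 2311 bp below the span of the gene on chromosome 14 (70077317 to 70082613). The nearest Treg midpoint to the Egr3 span was 76961 bp away, at the gene 9930012K11Rik. Farther from Egr3, 2 more conventional-only peaks were nearer to other genes. One of 748 bp lay 11373 bp from Egr3 and was assigned to Pebp4, and one of 288 bp lay 17377 bp from Egr3 and was assigned to Bin3.

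Egr1, a zinc finger factor induced by growth and antigen signals, had 1 shared site that lay outside the gene and no peak inside it. The Treg peak (chromosome 18, 34856101 to 34856545) was 445 bp wide and ranked 1018 of 3402. The conventional peak (34856159 to 34856512) was 354 bp wide and ranked 3247 of 4519, and it lay wholly within the Treg peak. The midpoints were 12 bp apart, the smallest shift among the 4 shared pairs, and lay 4884 bp (Treg) and 4872 bp (conventional) below the span (34861207 to 34864956). Sites farther from Egr1 lay at its neighbours: shared peaks at Kdm3b and Etf1, and a conventional-only peak at Hspa9.

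Of the 6 genes, 4 have a start in the promoter table. A peak midpoint within 1 kb of a start was found at 2 of the 4 in the Treg list (Nr4a1 and Egr2) and at 3 of the 4 in the conventional list (Nr4a1, Nr4a3 and Egr2). Over 17492 protein-coding genes with a listed start the shares were 8.15% for Treg and 12.7% for conventional peaks. With the limit at 500 bp the Treg count was 1, Nr4a1.

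Width is the only measure that the lists give of a peak, and it was read within each list. The 6 Treg peaks were 272 to 1029 bp wide with a median of 403.5 bp, against 366 bp over the Treg list, and 3 of the 6 were above that median. The 11 conventional peaks were 281 to 675 bp wide with a median of 365 bp, against 428 bp over the conventional list, and 2 of the 11 were above it. The 2 were the Nr4a1 promoter peak and the upstream Nr4a3 peak, both shared. None of the 7 conventional-only peaks reached the median width of its list.

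**Figure D2:**
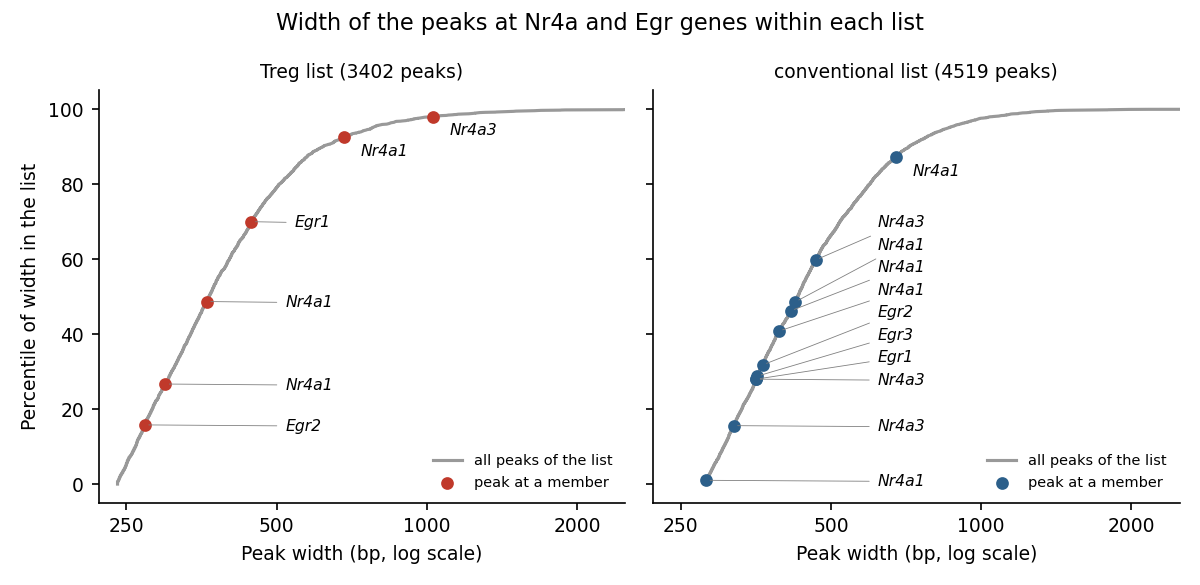
Width in bp (log scale) against its percentile within the list, for all peaks of the Treg list (left) and the conventional list (right; grey curves) and for the peaks at the 6 genes (points, named). The promoter peak of Nr4a1 stands at percentile 92.6 in the Treg list and 87.2 in the conventional list, and most conventional peaks at these genes stand below the middle of their list.

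The counts of peaks at the 6 genes, 6 Treg and 11 conventional, came from lists of different length, at 1.76 per 1000 Treg peaks and 2.43 per 1000 conventional peaks. The difference of Treg minus conventional peaks was -5. With the conventional list limited to its 3402 widest peaks, the length of the Treg list, the counts were 6 Treg and 9 conventional. Among peaks at or above the median width of their list the order turned round, with 3 Treg and 2 conventional peaks at the 6 genes. None of the 7 conventional-only peaks was among them.

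No peak assigned to any of the 6 genes lay more than 7423 bp from its span, so the 100 kb limit itself decided none of them. The nearest peaks that went to another gene were a shared pair at Atg101, 9219 bp (Treg) and 9149 bp (conventional) beyond Nr4a1.

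Genes with roles around the Nr4a and Egr factors were then counted in 4 lists, chosen with earlier results of these data known. Other immediate early genes had a Treg peak at 19 of 28 (67.9%) and a conventional peak at 24 of 28 (85.7%). Over all protein-coding genes the shares were 12.3% and 16.3%. All 19 were among the 24, while 1788 of the 2691 protein-coding genes with a Treg peak also had a conventional peak. Fos, an AP-1 subunit, had 4 Treg and 3 conventional peaks, with 1 shared peak at its start in each list (204 bp and 104 bp before it). No other Fos peak lay within 10 kb of its span, and the rest lay 18487 to 29063 bp from it. Junb, another AP-1 subunit, had 3 Treg and 4 conventional peaks, all within 1155 bp of its span. Dusp1, a phosphatase that inactivates MAP kinases, had 3 Treg and 2 conventional peaks, and its shared promoter peak was 341 bp wide in Treg cells and 1121 bp in conventional cells. Nfkbia, the inhibitor of NF-kappaB, had 2 Treg and 3 conventional peaks, with a shared peak at its start of 669 bp and 1237 bp. A Treg-only peak of Dusp1 (23432 bp) and a shared pair at Nfkbia (24402 bp and 24593 bp) also lay more than 10 kb from the span.

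Regulators upstream of the 6 genes had a Treg peak at 10 of 18 and a conventional peak at 9 of 18. Over all protein-coding genes the shares were 12.3% and 16.3%. Mef2d, a MADS-box factor that activates Nr4a1 after calcium signals, had 2 shared peaks, and the one at its start was 1254 bp wide in Treg cells (rank 34) and 1125 bp in conventional cells (rank 70). Elk4, an ETS partner of SRF, had 1 shared peak at its start, 1130 bp and 1114 bp wide. Crem, a relative of CREB, had 2 shared peaks in its span. Hdac4, a histone deacetylase that binds MEF2 factors, had 1 Treg-only peak and 5 conventional-only peaks, all inside its span and none shared. That span is long (chromosome 1, 91928779 to 92195702), and the rule gives every midpoint inside a span to its gene.

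Family members and partners had a Treg peak at 2 of 6 and a conventional peak at 3 of 6, against 12.3% and 16.3% of all protein-coding genes. The corepressors Nab1 and Nab2, which bind Egr proteins, had 1 shared peak each, at the start of Nab1 and 1592 bp (Treg) and 1615 bp (conventional) before the start of Nab2. Rxrb, a retinoid X receptor of the family that pairs with Nr4a1 and Nr4a2, had a 787 bp conventional-only peak at its start. Egr4, the remaining Egr gene, had no peak in either list.

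Genes linked to Egr2, Egr3 or Nr4a function in T cells had a Treg peak at 10 of 26 and a conventional peak at 14 of 26. Over all protein-coding genes the shares were 12.3% and 16.3%. Fasl, the death ligand, had 2 Treg peaks, both shared, and 7 conventional peaks, of which 5 were conventional-only, among them one at its start. The Treg peaks lay 13028 and 18992 bp from its span. Only 2 of the 7 conventional peaks lay within 10 kb of it, and the farthest was 45671 bp away. Bcl6, the repressor that sets the follicular helper lineage, had 1 shared peak at its start and 1 unshared peak in each list. Cdkn1b, the gene of the Cdk inhibitor p27, had 2 Treg-only peaks and 1 conventional-only peak. Ikzf4, which encodes Eos, had a shared and a Treg-only peak in its span. Over the 4 lists together 41 of 78 genes had a Treg peak (52.6%) and 50 of 78 a conventional peak (64.1%), with 37 in common. Of the 78 genes, 4 had Treg but no conventional peaks (5.13%, against 4.13% of all protein-coding genes), a share near the background. Another 13 had conventional but no Treg peaks (16.7%, against 8.1%). Peaks of both lists were at 37 of the 78 genes, against 8.17% of all protein-coding genes. All of these shares count genes without any peak. They do not give how often a gene with a peak had it in 1 list alone, which was not computed. The shares of all protein-coding genes are the lower ones in these comparisons, but no list was matched on gene activity or gene length. No test was made.

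**Figure D3:**
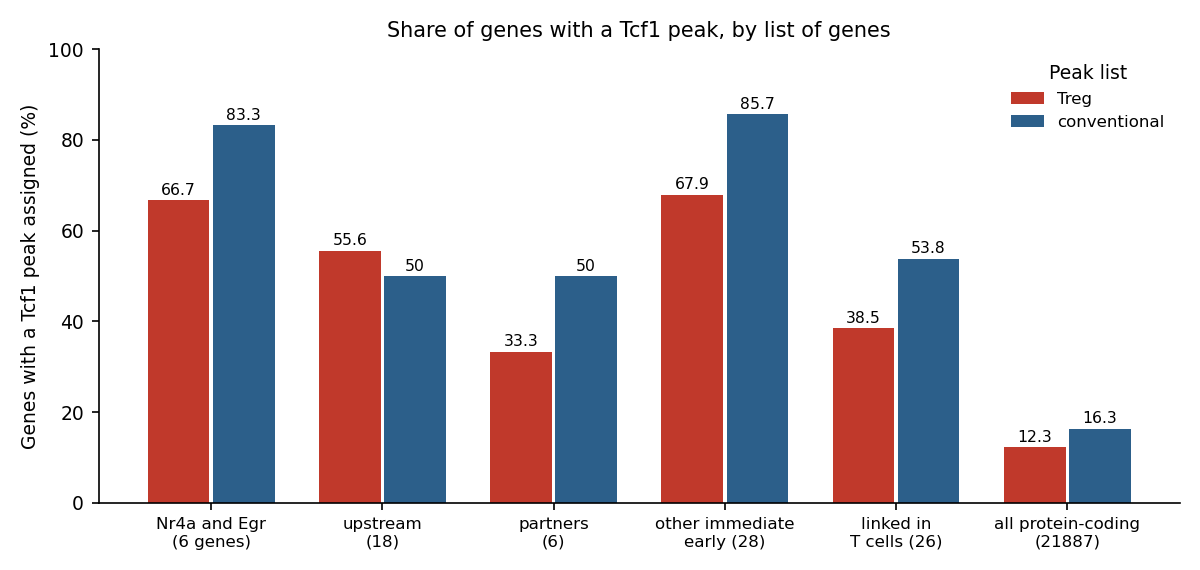
Share of genes (%) with a Tcf1 peak assigned, for the 6 Nr4a and Egr genes, the 4 lists of related genes and all 21887 protein-coding genes, in the Treg list (red) and the conventional list (blue); the number of genes is in brackets. The 6 genes stand at 66.7% and 83.3%, the other immediate early genes at 67.9% and 85.7%, and all genes at 12.3% and 16.3%.

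Nr4a1 was also compared with all other protein-coding genes by its pattern of 2 shared Treg peaks, 0 Treg-only and 3 conventional-only peaks. The measure was the sum of absolute differences in these 3 counts over the 2 lists, with ties settled by the summed width. Close peaks do not enter the measure. Ccr7, the lymph node homing receptor, was the only other gene with a difference of 0, and had 2 Treg and 5 conventional peaks. Nr4a1 had 3 Treg and 5 conventional peaks, 1 of its Treg peaks being close. Next, with a difference of 1, came Znrf3, a ligase that clears Wnt receptors from the cell surface, Runx1, a Runt-domain factor of T cell development, Bach2, a repressor of effector differentiation, and Klf13, a Kruppel-like factor. Only the genes nearest by this measure are named, and how many others had a difference of 1 is not given here. The likeness is of peak counts in 1 library of each cell type.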

How the data were processed

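Tcf1 binding was measured in 1 Treg and 1 conventional library. The deposited peak lists hold 3 columns (chromosome, start and end), with no signal, count or p-value. Per the submitters' processing notes, FastQC, Bowtie2 2.3.4.1, MACS2 2.1.1 and the mm10 build were used; their roles, the filter named in the lists and any control library are not given in the sources used here. Libraries were amplified with 18 to 21 PCR cycles, per the labels' protocols. Starts were converted to 1-based positions. Depth per sample is unknown.

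Genes came from a RefSeq table of GRCm38.p6, whose primary chromosomes are those of mm10, and starts, strand and 300-base promoter windows from its RefSeq promoter table, which held 17492 of 21887 protein-coding genes and 4 of the 6 members. Exons, introns and peak sequence were not analysed here. Motifs searched on both strands were CTTTGAT (TCF/LEF), CTTTGAA (TCF/LEF), CTTTGTT (TCF/LEF), TGACGTCA (full CREB site), TGACG (its core, which lies within it), TGANTCA (AP-1), GCGTGGGCG (Egr), GCGGGGGCG (Egr), AAAGGTCA (Nr4a monomer site) and the CArG box. TGACGTCA (1.79% of windows), TGANTCA (7.81%), GCGTGGGCG (0.612%) and AAAGGTCA (1.51%) were in no member window.

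Assignment, class and place of peaks were computed in Python 3.11.15 (pandas 2.3.3, numpy 2.4.6, scipy 1.17.1 for exact intervals, matplotlib 3.10.9 for plots), and the steps were tested on simulated data. With 1 library per cell type no test was made. Members, lists and rules were chosen with earlier results of these data known. Named genes are the 6 members, up to 4 genes with the most peaks per list, genes that took peaks within 100 kb of a member, and the 5 genes most like the member with the most peaks. Beyond that rule, marker genes and Egr4, the one Egr gene that is no member, are named from their lists, and Srf, Tnfrsf9, Nfatc1, Mrtfb, Dusp5, Cblb, Mef2a and Batf were chosen after their values were seen. Alternatives varied assignment, overlap, width threshold, list length, merging and the start limit.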

Additional observations from a re-analysis of the deposited data

How the results depend on the processing

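Counting every peak up to 100 kb from a span, whichever gene was nearest, the 6 genes had 12 Treg peaks (9 shared, 2 Treg-only) and 20 conventional peaks (9 shared, 11 conventional-only), a difference of -8. Among peaks at or above the median width of their list (366 bp for Treg, 428 bp for conventional) there were 3 Treg peaks, 2 of them shared, and 2 conventional peaks at 2 genes, both shared with 0 conventional-only, and the difference was reversed at 1. With lists of equal length the difference was -3. Assignment to the nearest listed start left 3 members with a conventional peak, because Egr1 and Egr3 have no start in the table used. A start limit of 500 bp left 1 Treg peak at a start, and a close limit of 1500 bp, chosen after seeing the data, left 0 Treg-only peaks. The other 90 values for the 6 genes together and for the 78 related genes stayed within 1.5 times. All such values did so under a 20 kb limit, a 10 kb window, genes of any type, merged peaks and the other definitions of overlap. Values for single genes and single lists were labelled apart, and 24 moved by more than 1.5 times while 136 did not. Among peaks at or above the median width, Nr4a1 and Nr4a3 each kept 1 Treg and 1 conventional peak. Egr1 kept its Treg peak, Egr2 lost its own, and no conventional peak was left at Egr1, Egr2 or Egr3. With genes of any type, the partners list had a Treg peak at 1 gene, from 2. No paired analysis was possible because each cell type has 1 library, and no library could be left out. The number and width of peaks depend on depth, which is unknown, so a gene without a peak, such as Nr4a2, is not shown to lack binding.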

Other observations

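Among the 78 related genes, 4 had a Treg peak and no conventional peak, a share near that of all protein-coding genes (5.13% against 4.13%), and they are named because of that count. Srf, the factor that binds the CArG box, had a 741 bp Treg-only peak at its start. Tnfrsf9, a costimulatory receptor of activated T cells, had a 260 bp Treg-only peak at its start. Nfatc1, a calcium-responsive factor, had a 285 bp Treg-only peak inside its span. Mrtfb, a coactivator of SRF, had a 253 bp Treg-only peak 23063 bp from its span. The peaks at Tnfrsf9, Nfatc1 and Mrtfb were narrower than the lower quartile of the Treg list (295 bp), whose narrowest peak was 240 bp. Conventional peaks without a Treg peak were found at 13 of the 78 genes (16.7%, against 8.1% of all protein-coding genes). Named from them after their values were seen are Dusp5, a MAP kinase phosphatase gene, with 3 conventional-only peaks, Cblb, a ubiquitin ligase gene that restrains T cell activation, with 2 inside its span, and Mef2a, a relative of Mef2d, with a 683 bp peak at its start. Batf, an AP-1 family factor gene, had a 424 bp conventional-only peak at its start. No difference between the lists was tested at any of these genes.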
